A study of Mus musculus with 5 samples.

Results

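Regulated exocytosis is the step by which an endocrine cell releases stored hormone on demand. Granules are carried to the plasma membrane, tethered there by Rab GTPases and their effectors, primed by Unc13 proteins, and fused by a SNARE complex when calcium binds a synaptotagmin. Pancreatic islet cells share this machinery with neurons, and the balance of its parts sets how readily glucagon, insulin and somatostatin are released.

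The 9 genes described here were chosen by symbol and not by a threshold on their values, and all 9 were found among the 36529 genes of each of the 3 deposited tables. Rab3a encodes a Rab GTPase of secretory granules, Sytl4 encodes granuphilin, an effector that docks insulin granules, and Unc13a encodes a priming factor. Vamp2 encodes the SNARE of the granule membrane, and Stx1a and Snap25 encode its partners in the plasma membrane. Syt7 encodes a calcium sensor with high affinity, and Ptprn and Ptprn2 encode IA-2 and IA-2beta, phosphatase-like proteins that span the granule membrane. In the mouse genome (GRCm38.p6) Rab3a lies at chr8:70754703-70758608, Sytl4 at chrX:133936385-133981821 and Unc13a at chr8:71624125-71671774. Vamp2 lies at chr11:69088528-69092381, Stx1a at chr5:135023482-135051100 and Snap25 at chr2:136713439-136782428. Syt7 lies at chr19:10388802-10453181, Ptprn at chr1:75247035-75264497 and Ptprn2 at chr12:116485695-117278167.

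The mice carried a knockout of Gcgr, the glucagon receptor gene, and the study concerns neuroendocrine tumors that start from some of their alpha cells, the source of glucagon. Transcripts of single cells were counted in pancreatic tumors of homozygous knockout mice (3 libraries, called tumor A, B and C), in homozygous knockout islets (1) and in heterozygous islets (1). Wild-type islets were not analysed here, so every group carries at least 1 knockout allele, and the labels state neither age nor whether animals were pooled. The labels also do not say that the tumors came from separate animals, so the spread between tumor libraries may be partly technical.

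Values are unique molecular identifiers (UMIs, 1 for each captured transcript) per 1000000 UMIs of the named cells (CPM). Intervals (95%, exact Poisson for levels, Clopper-Pearson for shares of cells) cover counting error only. After doublets were removed the tumor libraries held 495, 846 and 1084 cells, the homozygous islets 2843 and the heterozygous islets 1326, with median depths between 10961 and 26091.5 UMIs per cell. Gcgr had 0, 1 and 3 UMIs in tumors A, B and C, 0 in homozygous alpha cells and 8 in heterozygous alpha cells. All tumor cells were taken as alpha-like, with Gcg, which encodes proglucagon, at 364264, 284170 and 312470 CPM in tumors A, B and C, against 326369 in homozygous and 339537 in heterozygous alpha cells. The authors' tumor clusters followed the libraries almost completely: cluster 3 was tumor A, cluster 1 was tumor B, and clusters 2 and 4 were tumor C.

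Rab3a was found in every islet cell type of both genotypes and, among endocrine types, was highest in delta cells, which make somatostatin. In delta cells it stood at 119.6 CPM (108 to 132) in the homozygous library and 153.8 (120 to 195) in the heterozygous library. Homozygous alpha, beta and PP (pancreatic polypeptide) cells had 58.6, 74.1 and 79.7 CPM, and heterozygous alpha and beta cells had 87.7 and 81.6. Rab3a was not confined to hormone-producing cells, since endothelial cells had 42.4 CPM (27.2 to 63.1) in the homozygous library and 70.2 (53.6 to 90.4) in the heterozygous one. Ptprn in the same endothelial cells was 21.2 and 16.4 CPM, against 234.0 and 193.7 in homozygous and heterozygous alpha cells, so Rab3a and Ptprn did not keep 1 ratio across cell types.

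Sytl4 was highest in beta cells in both islet libraries. It reached 31.2 CPM (26.7 to 36.1) in homozygous beta cells and 68.3 (64.5 to 72.3) in heterozygous beta cells. Heterozygous stellate cells had 22.2 CPM, with a wide interval (2.69 to 80.3) that overlapped that of beta cells. Homozygous alpha, delta and PP cells had 0.948, 0.290 and 0.546 CPM, which rest on 21, 1 and 1 UMIs. Heterozygous alpha and delta cells had 4.04 and 11.1 CPM, next to 7.02 in endothelial cells of that library. The intervals of all 3 overlapped, so these levels could not be told apart. Insulin and other beta cell marker transcripts summed to 55516 CPM in heterozygous alpha cells and 47802 in heterozygous endothelial cells, against 11489 and 8153 in the homozygous library, and their part in the low Sytl4 levels was not tested.

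The SNARE genes of the plasma membrane and of the granule were distributed differently. Snap25 was higher in hormone-producing than in endothelial cells: it stood between 56.6 and 70.1 CPM in the 4 homozygous endocrine types and between 54.8 and 79.0 in the 3 heterozygous ones. Endothelial cells had 7.07 CPM of Snap25 in the homozygous and 4.68 in the heterozygous library, on 4 UMIs each. Stellate cells had 10.5 CPM (1.27 to 38.0) in the homozygous library and 11.1 (0.281 to 61.9) in the heterozygous one, where the interval overlapped that of beta cells (51.3 to 58.4). The homozygous Unknown2 cells had 21.9 CPM (8.05 to 47.8). Vamp2 was present throughout, at 76.0 and 105.4 CPM in homozygous and heterozygous endothelial cells and at 110.5 and 111.1 CPM in stellate cells, the pericyte-like and fibroblast-like cells of the islet. Among endocrine cells Vamp2 in CPM was highest in delta cells, at 136.4 CPM in the homozygous and 193.9 in the heterozygous library. Stx1a was scarce. It reached 12.2 CPM in homozygous delta cells and 13.4 in heterozygous alpha cells, and it was lowest among endocrine types in beta cells, at 3.03 and 3.47 CPM, below the alpha cell intervals of both libraries (7.90 to 10.5 and 9.68 to 18.0). Endothelial cells had 10.6 and 12.9 CPM of Stx1a, on 6 and 11 UMIs, and did not differ from alpha cells beyond their intervals.

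Unc13a was also scarce, between 9.82 and 19.7 CPM in homozygous endocrine cells and between 8.92 and 18.7 in heterozygous ones, with 3 and 4 UMIs in endothelial cells. The intervals of neighbouring cell types in this order overlapped in both libraries. Syt7 had a different order in the 2 libraries. In the homozygous library beta cells led with 98.6 CPM (90.6 to 107), above alpha cells with 78.7 (75.1 to 82.5). In the heterozygous library alpha cells led with 132.5 CPM (120 to 146), and beta cells had 78.6 (74.4 to 82.9). Delta cells, with 77.4 and 122.6 CPM, could not be told from alpha cells in either library.

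Ptprn and Ptprn2 were higher in endocrine than in endothelial cells. Ptprn was highest in delta cells, at 300.7 CPM (283 to 320) in the homozygous and 289.8 (242 to 344) in the heterozygous library. Alpha cells followed with 234.0 and 193.7 CPM, and beta cells had 130.3 and 126.9. No non-endocrine type of either library exceeded 33.3 CPM. Ptprn2 was highest in beta cells of the homozygous library, at 217.2 CPM (205 to 230), against 157.1 in alpha and 159.0 in delta cells. In the heterozygous library delta cells had 267.5 CPM (222 to 320) and alpha cells 209.6 (194 to 226), and beta cells were lower with 147.9.

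**Figure D1:**
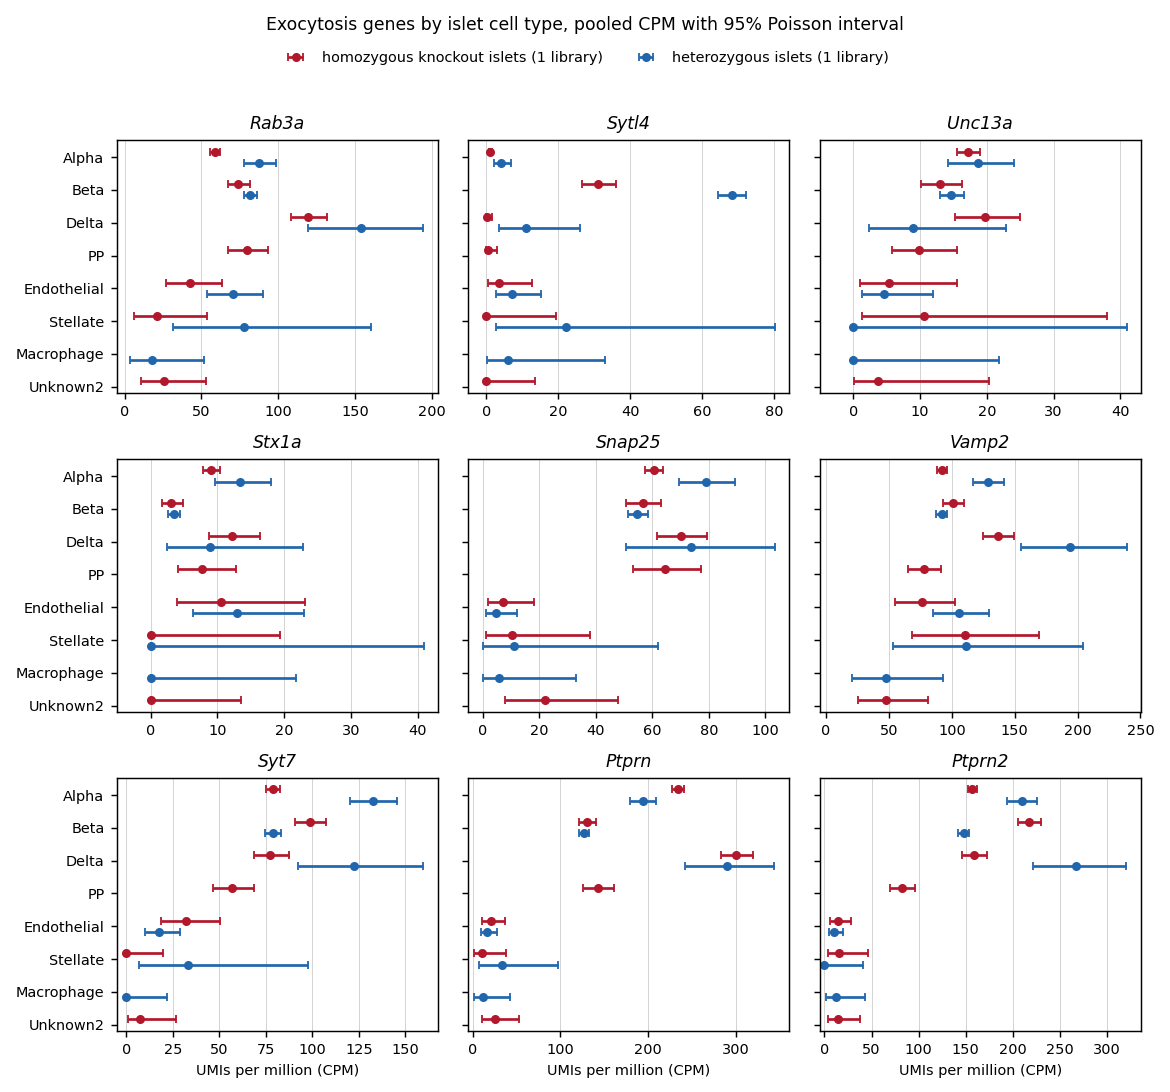
Pooled level of each gene (x axis, UMIs per 1000000, 1 scale per panel) in each islet cell type (y axis) of the homozygous (red) and heterozygous (blue) library, with exact 95% Poisson intervals, where PP and Unknown2 cells were labelled only in the homozygous library and macrophages only in the heterozygous one. Sytl4 is highest in beta cells (31.2 and 68.3 CPM), and Vamp2 is also seen in endothelial and stellate cells.

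The order of endocrine types depended on the hormone transcripts in the total. Transcripts of 8 genes (Gcg, Ins1, Ins2, Ppy, Pyy, Sst, Iapp and the carrier gene Ttr) took 71.3% and 71.4% of the UMIs of homozygous and heterozygous beta cells, 56.5% and 48.1% of those of alpha cells, and 4.44% and 5.44% of those of endothelial cells. Per 1000000 of the remaining UMIs Rab3a stood at 258 CPM in homozygous and 285 in heterozygous beta cells, above alpha cells with 134.7 and 169.0. Delta cells had 258 and 255 CPM on that scale, with intervals that overlapped those of beta cells. Ptprn2 in heterozygous beta cells was then 517 CPM, against 404 in alpha cells, which turns their order. Ptprn stayed higher in homozygous alpha cells (538 CPM) than in homozygous beta cells (455), but in the heterozygous library beta cells stood above alpha cells, with 443 against 373. Syt7 was then 274 CPM in heterozygous beta cells and 255 in heterozygous alpha cells, with overlapping intervals, so the lead of alpha cells in CPM was not seen on this scale. In homozygous cells it was 344 in beta and 181 in alpha cells. Vamp2 was then higher in homozygous beta cells (351.7 CPM, 323 to 382) than in delta cells (294.6, 269 to 322), and heterozygous beta and delta cells had 320.9 and 322.0. Snap25 was 191 CPM in heterozygous beta cells and 152 in alpha cells, which turns their order. The low Snap25, Ptprn and Ptprn2 in endothelial cells and the beta cell pattern of Sytl4 held on both scales.

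Promoter sequence was at hand for 6 of the 9 genes (RefSeq, GRCm38.p6, 250 bases before to 50 after the start site), of which 3 are shown. Ptprn2 and Unc13a are shown because both hold both arms of RE1, the element bound by the repressor REST, which silences neuronal genes in other cells and is itself low in pancreatic endocrine cells. Rab3a is shown because it is the only member that passed the adjusted p threshold in the tumor comparison below, at the edge of that threshold. Its window holds 2 copies of the core of the cyclic AMP response element, and a link between these copies and the Rab3a level was not tested. The motifs were picked after the windows had been read. Capitals mark TTCAGCACC and GGACAGCGC (the left arm of RE1 and most of its right arm) and TGACGT (the cyclic AMP element's core), searched on both strands. In these windows each match reads as the reverse complement (GGTGCTGAA, GCGCTGTCC and ACGTCA). The windows are, for Ptprn2, chr12:116485470-116485769 (+ strand), for Unc13a, chr8:71671708-71672007 (- strand), and for Rab3a, chr8:70754453-70754752 (+ strand).
Ptprn2: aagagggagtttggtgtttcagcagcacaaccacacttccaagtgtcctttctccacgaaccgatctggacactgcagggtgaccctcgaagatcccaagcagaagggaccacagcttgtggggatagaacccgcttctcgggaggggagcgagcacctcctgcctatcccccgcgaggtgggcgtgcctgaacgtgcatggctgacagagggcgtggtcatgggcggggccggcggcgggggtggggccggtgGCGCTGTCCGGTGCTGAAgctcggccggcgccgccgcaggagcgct
Unc13a: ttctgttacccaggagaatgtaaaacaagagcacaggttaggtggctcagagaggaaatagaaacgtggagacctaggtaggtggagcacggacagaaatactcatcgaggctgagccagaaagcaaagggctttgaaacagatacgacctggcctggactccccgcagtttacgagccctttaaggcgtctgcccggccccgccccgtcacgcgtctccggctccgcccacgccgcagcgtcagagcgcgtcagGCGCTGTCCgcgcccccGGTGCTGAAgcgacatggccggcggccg
Rab3a: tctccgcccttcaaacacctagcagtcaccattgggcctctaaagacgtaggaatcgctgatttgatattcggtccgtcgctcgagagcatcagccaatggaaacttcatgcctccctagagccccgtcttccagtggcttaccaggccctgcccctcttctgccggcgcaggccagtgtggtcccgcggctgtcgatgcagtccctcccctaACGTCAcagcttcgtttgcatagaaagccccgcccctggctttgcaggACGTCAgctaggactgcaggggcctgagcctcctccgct
The RE1 arms are adjacent in the Ptprn2 window and 8 bases apart in the Unc13a window. They were searched separately, so neither window is shown to hold a whole RE1, and binding of REST was not tested. Of 32851 promoter windows of the same length, 0.371% hold the left arm, 0.405% the right and 5 windows (0.0152%) hold both. The cyclic AMP core is in 7.51% of windows, and 714 windows hold it 2 or more times on either strand, where the core followed by CA, a palindrome, counts as 2. A second Rab3a window, both Ptprn windows and those of Stx1a and Sytl4 hold none of these motifs.

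Tumor cells were then compared with islet alpha cells, the cell type from which such tumors arise, to ask which parts of the machinery differed. For this test the CPM of each cell was averaged within a library, and log2(mean CPM + 1) was fitted with limma over 3 tumor and 2 islet libraries. Rab3a was lower in tumors, and no other gene of the 9 passed the threshold of 0.05 on the Benjamini-Hochberg adjusted p. Among the 10173 genes tested 212 (2.08%) were higher and 14 (0.138%) lower in tumors, against 0 higher and 1 lower of the 8 members that could be tested. Sytl4 was too low to test. The median gene was shifted by 0.24 on the log2 scale, and changes and intervals below are relative to it. The calls and adjusted p-values test the change before this shift, which was -1.44 for Rab3a and 1.08 for Ptprn. The islet arm holds both genotypes, so genotype and tumor cannot be fully told apart.

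Rab3a averaged 20.8, 31.7 and 27.0 CPM over the cells of tumors A, B and C, against 59.2 in homozygous and 88.6 in heterozygous alpha cells. Every tumor library lay below both islet libraries, which 5.73% of all tested genes did. The tumor mean was 26.5 ± 5.46 CPM (SD, n = 3), and the change relative to the median gene was -1.68 on the log2 scale (SE 0.29, limma adjusted p = 0.0479). The call sat at the edge of the threshold. It was lost when any 1 library was left out (limma adjusted p = 0.113 without tumor A, 0.0673 without tumor B, 0.109 without tumor C, 0.0784 without the homozygous and 0.154 without the heterozygous islets) and with edgeR on whole UMIs (0.0538), while DESeq2 gave 5.2e-07. The relative change stayed between -1.83 and -1.50 in all 16 alternatives, of which 7 kept the adjusted p under 0.05. The call was also lost with UMIs summed over cells (limma adjusted p = 0.0523) and with no filter on low values (0.118). Among the 16 alternatives, the fit on tumor clusters 1 and 3 is the same fit as that without tumor C, which has only 2 cells in those clusters.

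Shares of cells with a Rab3a UMI were compared at equal depth. After each cell was thinned to 5000 UMIs, a Rab3a UMI was seen in 10.9% (8.21 to 14.0), 13.7% (11.4 to 16.2) and 13.8% (11.8 to 16.0) of the cells of tumors A, B and C. In alpha cells it was 26.6% (24.4 to 29.0) of homozygous and 35.9% (30.1 to 42.1) of heterozygous cells. Median depths were 19867, 26091.5 and 19378.5 UMIs in tumors A, B and C, against 2061 in homozygous and 3587 in heterozygous endothelial cells, and thinning left out 197 of 214 and 128 of 195 of these endothelial cells. Of the deeper cells that stayed, 3 of 17 homozygous (17.6%, 3.80 to 43.4) and 23 of 67 heterozygous cells (34.3%, 23.2 to 46.9) had a Rab3a UMI. The tumor shares lay within the homozygous endothelial interval and below the heterozygous one.

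Ptprn had higher means in tumors but did not pass the threshold. It averaged 378.6, 566.8 and 412.7 CPM in tumors A, B and C, against 240.3 in homozygous and 185.1 in heterozygous alpha cells. All 3 tumor libraries lay above both islet libraries, as they did for 33.3% of all tested genes. The relative change was 0.84 (SE 0.29, interval 0.16 to 1.51, limma adjusted p = 0.0995), and the adjusted p ran from 0.0929 to 0.334 over 16 alternatives. Ptprn2, its paralog, averaged 241.3, 228.3 and 163.0 CPM in tumors A, B and C, against 163.2 in homozygous and 212.5 in heterozygous alpha cells. The groups overlapped, and the relative change of -0.08 had an interval of -0.74 to 0.57 (limma adjusted p = 0.794).

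Syt7 averaged 168.7, 162.1 and 122.9 CPM in tumors A, B and C, against 82.2 in homozygous and 131.8 in heterozygous alpha cells. Tumor C lay below the heterozygous alpha cells and the other 2 tumors above them. The relative change was 0.28 (interval -0.40 to 0.96, limma adjusted p = 0.354). Unc13a averaged 38.4, 24.6 and 25.7 CPM in tumors A, B and C and 19.1 and 19.0 in homozygous and heterozygous alpha cells. Every tumor library lay above both islet libraries for Unc13a, as for 33.3% of all tested genes. The relative change of 0.34 had an interval that spans 0 (-0.28 to 0.96, limma adjusted p = 0.261).

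The 3 SNARE genes overlapped between tumors and alpha cells. Snap25 averaged 98.9, 56.7 and 82.3 CPM in tumors A, B and C, against 64.4 in homozygous and 78.2 in heterozygous alpha cells. Its relative change was -0.12 (interval -0.79 to 0.56). Vamp2 averaged 130.4, 170.1 and 117.4 CPM in the tumors, against 93.2 and 136.0 in homozygous and heterozygous alpha cells, with a relative change of 0.05 (-0.61 to 0.71). Stx1a averaged 11.8, 12.6 and 17.3 CPM in the tumors, against 8.99 and 14.4, with a relative change of 0.00 (-0.68 to 0.69). All 3 intervals span 0, which does not show that these genes were alike in tumors and alpha cells. Sytl4 averaged 0.050, 0.045 and 0.707 CPM in tumors A, B and C, against 0.987 in homozygous and 4.28 in heterozygous alpha cells. These levels rest on 1, 1 and 17 UMIs in tumors A, B and C and on 21 and 13 in homozygous and heterozygous alpha cells.

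**Figure D2:**
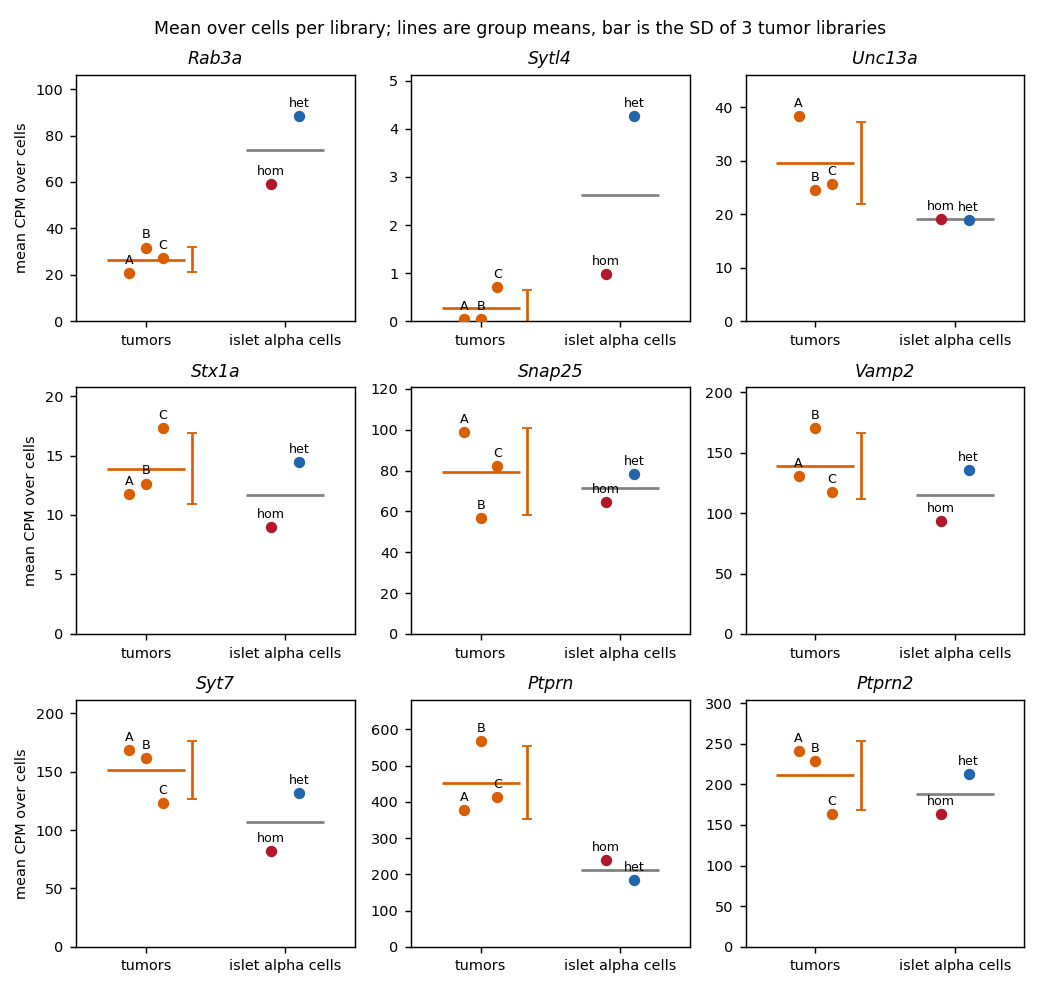
Mean CPM over cells (y axis) in tumors A, B and C (left of each panel) and in homozygous and heterozygous islet alpha cells (right), with group means as horizontal lines and the SD of the 3 tumor libraries as a bar, drawn down to 0 at most. The tumors lie below both islet points for Rab3a (20.8 to 31.7 CPM against 59.2 and 88.6) and above them for Ptprn (378.6 to 566.8 against 240.3 and 185.1).

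Mitochondrially encoded transcripts and markers of PP, beta and delta cells differed between the tumor libraries and the alpha cells of both islet libraries. Mitochondrially encoded transcripts summed to 13856, 12154 and 20892 CPM in tumors A, B and C, against 6513 in homozygous and 6327 in heterozygous alpha cells. PP cell markers (Ppy, Pyy and Vtn) summed to 5699, 11038 and 1981 CPM in the tumors, against 160107 and 35514. Beta cell markers summed to 4.36, 99.3 and 3323 CPM in tumors A, B and C, against 11489 in homozygous and 55516 in heterozygous alpha cells. Delta cell markers summed to 1045, 1810 and 1356 CPM in the tumors, against 4569 and 1990. Immediate early transcripts, at 2536, 2157 and 2482 CPM in the tumors, lay between homozygous (358) and heterozygous (3408) alpha cells. The part of these transcripts in the Rab3a difference was not tested.

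Levels within a group also differed between the authors' clusters. In the homozygous library the alpha cells lay mainly in cluster 2.1 (947 cells), which was high in the amino acid transporter gene Slc38a5 (1087 CPM), and in cluster 2.2 (563 cells, 195.2 CPM). Rab3a stood at 53.0 CPM (49.3 to 56.9) in cluster 2.1 and 68.9 (63.2 to 75.0) in cluster 2.2. Ptprn ran the other way, with 268.4 CPM (260 to 277) in cluster 2.1 and 171.8 (163 to 181) in cluster 2.2. Ptprn2, at 177.7 and 120.4 CPM, and Syt7, at 86.6 and 65.1 CPM, were likewise higher in cluster 2.1. The clusters were drawn from these same cells, so these are descriptions without a test. In tumor C, cluster 2 had more Stx1a (20.7 CPM, 18.3 to 23.3) than cluster 4 (9.36, 7.38 to 11.7) and more Syt7 (136.7 against 98.3 CPM). Ptprn was lower in cluster 2, at 370.3 CPM, than in cluster 4, at 449.8.

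**Figure D3:**
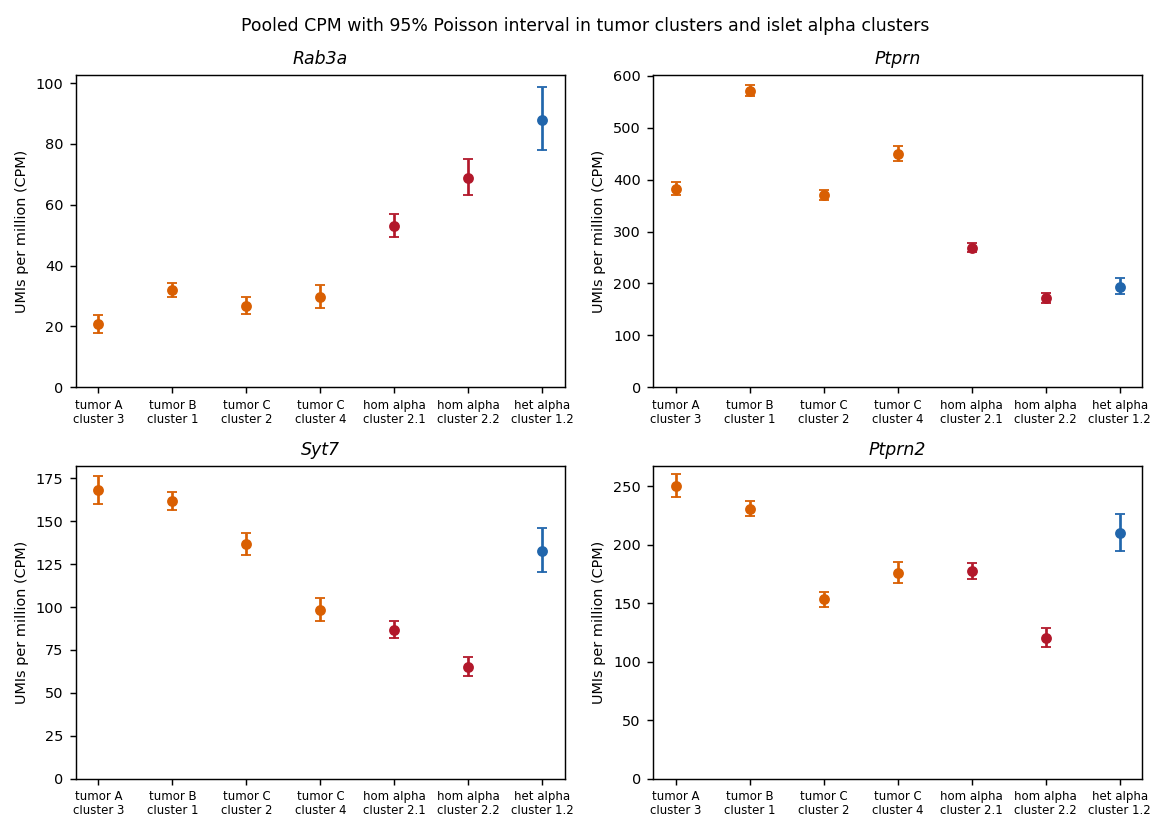
Pooled CPM (y axis) with exact 95% Poisson intervals of Rab3a, Ptprn, Syt7 and Ptprn2 in the tumor clusters (orange) and in the main alpha clusters of homozygous (red) and heterozygous (blue) islets. Rab3a lies between 20.6 and 31.8 CPM in the tumor clusters and at 53.0, 68.9 and 87.9 CPM in the islet clusters, and the tumor ranges of Syt7 and Ptprn2 overlap those of the islets.

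Alpha-like cells were also split by whether they held a Slc38a5 UMI, a split that bears on the subpopulation of alpha cells the study is about. Tumors A, B and C had only 14, 2 and 6 negative cells, so the comparison rests on the 2 islet libraries, with library as a block. None of the 8 genes tested passed the threshold (limma), beside 29 of 9719 genes higher (0.298%) and 12 lower (0.123%) in positive cells. Ptprn came closest by unadjusted p, at 248.1 CPM in positive and 203.0 in negative homozygous cells and at 200.2 in positive and 174.8 in negative heterozygous cells. Its change relative to the median gene was 0.23 on the log2 scale (SE 0.12, limma adjusted p = 0.692). Unc13a stood at 19.1 CPM in positive and 19.3 in negative homozygous cells and at 12.2 and 23.6 in heterozygous ones (relative change -0.47, SE 0.25, limma adjusted p = 0.725). Positive cells were deeper, with medians of 14895.5 against 10408 UMIs in the homozygous and 12446 against 8597 in the heterozygous library. With cells thinned to 5000 UMIs, 4 libraries had enough negative cells and again none of the 9 genes passed (lowest limma adjusted p = 0.704). The difference between the class effect in tumors and in islets was tested in that fit, and passed for no gene of 11202 (563 had an unadjusted p under 0.05).

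The islet genotypes were set side by side by cell type. With 1 library each there is no test, and a gene was counted as higher or lower when it reached 50 CPM in 1 genotype and the exact interval of its ratio lay wholly beyond 1.5-fold. By that rule Syt7 was lower in homozygous alpha cells and Sytl4 was lower in homozygous beta cells, and no member met the rule in delta or endothelial cells.

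In alpha cells 316 of 1952 genes (16.2%) were lower and 88 (4.51%) higher in the homozygous library, and the median gene had a ratio of 0.856. Of the 6 members measured there 1 was lower and 0 were higher. With hormone transcripts left out of the totals the split was 298 lower and 261 higher of 3913 genes. Syt7 stood at 78.7 CPM in homozygous and 132.5 in heterozygous alpha cells, a ratio of 0.594 (0.534 to 0.662). That ratio was 0.708 without the hormone transcripts and 0.694 relative to the median gene, and it then no longer met the rule. Rab3a had a ratio of 0.668 (0.587 to 0.763), Vamp2 0.716 (0.644 to 0.798), Ptprn2 0.750 (0.690 to 0.815) and Snap25 0.766 (0.669 to 0.880). Relative to the median gene they were 0.781, 0.837, 0.876 and 0.895. Ptprn lay above 1, with 234.0 CPM in homozygous and 193.7 in heterozygous alpha cells (1.21, 1.11 to 1.31), and at 1.41 relative to the median gene. Immediate early transcripts were lower in homozygous alpha cells (358 against 3408 CPM), and their part in these ratios was not tested.

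In beta cells 74 of 1199 genes (6.17%) were lower and 53 (4.42%) higher, with a median ratio of 0.975, and of 7 measured members 1 was lower and 0 were higher. With hormone transcripts left out the rule found 176 lower and 153 higher of 4469 genes. Sytl4 stood at 31.2 CPM in homozygous and 68.3 in heterozygous beta cells, a ratio of 0.456 (0.387 to 0.535). It reached 50 CPM only through the heterozygous library. It was 0.456 without the hormone transcripts and 0.468 relative to the median gene, and met the rule each time. The authors' beta clusters had 31.1 and 34.9 CPM in clusters 2.4 and 2.7 of the homozygous library and 64.2 and 76.3 in clusters 1.1 and 1.3 of the heterozygous one. These clusters are parts of the same libraries and add no separate support, and cluster 2.7 held only 28 cells. After thinning, a Sytl4 UMI was seen in 14.4% (11.2 to 18.1) of homozygous and 27.9% (24.6 to 31.5) of heterozygous beta cells, next to 0 of 17 homozygous and 2 of 67 heterozygous endothelial cells. Ptprn2 had 217.2 CPM in homozygous and 147.9 in heterozygous beta cells, a ratio of 1.47 (1.37 to 1.57), whose interval reaches past 1.5 and thus does not meet the rule. Syt7 had a ratio of 1.26 (1.14 to 1.39), and Vamp2, Snap25, Ptprn and Rab3a lay between 0.907 (Rab3a) and 1.097 (Vamp2). PP cell markers summed to 62250 CPM in homozygous and 1505 in heterozygous beta cells, and alpha cell markers to 25459 and 7542, and their part in these ratios was not tested.

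In delta cells 262 of 2529 genes (10.4%) were lower and 22 (0.87%) higher, the median ratio was 0.739, and 0 of 6 measured members met the rule. Leaving out hormone transcripts gave 128 lower and 101 higher of 4470 genes. Ptprn2 stood at 159.0 CPM in homozygous and 267.5 in heterozygous delta cells (ratio 0.595, 0.487 to 0.731), and Syt7 at 77.4 and 122.6 (0.631, 0.470 to 0.859). Relative to the median gene these ratios were 0.805 (0.659 to 0.989) and 0.854 (0.637 to 1.16), and that of Rab3a was 1.05, against 0.778 as measured. The heterozygous delta group held only 62 cells, and PP cell markers summed to 77095 CPM in it, against 233410 in homozygous delta cells. In endothelial cells 57 of 4286 genes (1.33%) were lower and 138 (3.22%) higher, and neither Rab3a (0.603, 0.359 to 0.984) nor Vamp2 (0.721, 0.489 to 1.05), the 2 members measured there, met the rule.

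**Figure D4:**
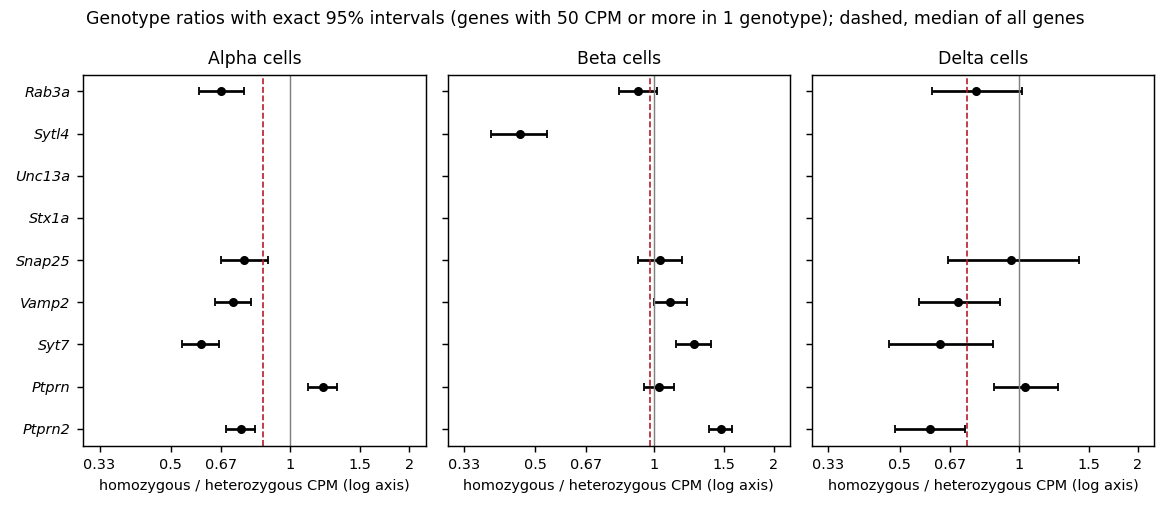
Homozygous over heterozygous ratio of CPM (x axis, log scale) with exact 95% intervals in alpha, beta and delta cells, 1 library per genotype, where members under 50 CPM in both genotypes have no point, the grey line is 1 and the dashed line is the median ratio of all measured genes. Sytl4 in beta cells (0.456) lies farthest from its dashed line, and Syt7 and Ptprn2 lie below 1 in alpha cells and above 1 in beta cells.

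The wider machinery was described by lists of related genes. Among 24 other SNAREs and their disassembly factors, 21 were tested in the tumor comparison and 0 passed (limma), with a median relative change of -0.04. Of 21 genes that bind or prime SNAREs, 11 were tested and 0 passed (median -0.03), and of 31 genes of the Rab3 and Rab27 cycle, 21 were tested and 0 passed (median 0.14). The vesicle membrane list (18 of 23 tested, median -0.09) and the exocyst (9 of 9, median -0.06) had none either. The 8 tested members had a median of 0.03, beside 0.00 for all genes. Of all 10173 genes tested, 2.08% were higher and 0.138% lower. At those shares few or no calls would fall in lists of this size, so nothing is read from these counts. The synaptotagmin list had 1 gene higher of 7 tested out of 19. This was Syt4, a synaptotagmin of secretory granules that binds calcium poorly, at 115.2, 125.9 and 132.9 CPM in tumors A, B and C, against 48.4 in homozygous and 57.9 in heterozygous alpha cells. Its relative change was 0.98 (SE 0.24, limma adjusted p = 0.0441), and the adjusted p was 0.105 with TMM scaling, 0.115 with edgeR and between 0.0904 and 0.125 when 1 library was left out.

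In the genotype comparison 4 of the 21 genes that bind or prime SNAREs reached 50 CPM in alpha cells, and 3 of these met the rule downward, beside 16.2% of all measured genes. Cplx2, a complexin that clamps and activates the SNARE complex, stood at 93.5 CPM in homozygous and 244.4 in heterozygous alpha cells (0.383, 0.352 to 0.416). Cadps, a priming factor of dense-core granules, stood at 16.7 and 69.3 CPM (0.241, 0.204 to 0.286), and Baiap3, an Unc13-related protein, at 14.2 and 60.6 CPM (0.234, 0.195 to 0.282). Cadps and Baiap3 reached 50 CPM only through the heterozygous library, so they could hardly be counted as anything but lower, and nothing is read from the count. Cplx2 and Baiap3 also met the rule in delta cells, with ratios of 0.475 and 0.413. Other genes below the bound in alpha cells were Rimbp2 (0.420), which links calcium channels to release sites, the granule effector gene Rph3al (0.471), the zinc transporter gene Slc30a8 (0.542) and the SNARE disassembly gene Napa (0.580). In delta cells they were Slc30a8 (0.191), Rimbp2 (0.304), Syt14 (0.309) and Madd (0.377), a Rab3 exchange factor. No gene of the lists met the rule upward in alpha, beta or delta cells, Exoc7 was the 1 other gene lower in beta cells (0.449), and Myrip was higher in endothelial cells (2.94). Rimbp2 (alpha and delta cells), Rph3al, Exoc7 and, in delta cells, Slc30a8, Syt14 and Madd likewise reached 50 CPM only in the heterozygous library, and Myrip only in the homozygous one. These ratios are not relative to the median gene. Beta cell markers summed to 11489 CPM in homozygous and 55516 in heterozygous alpha cells and to 64152 and 162377 in delta cells, and their part in these ratios was not tested.

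Across the 17 groups of cells (cell types of each islet library and tumor clusters with 20 or more cells) the members varied together to different degrees. Pearson's r of log2(CPM + 1) was 0.93 between Snap25 and Ptprn, 0.87 between Syt7 and Ptprn and 0.83 between Ptprn and Ptprn2. Rab3a had r between 0.05 (Unc13a) and 0.50 (Sytl4) with the other members, with 0.47 against Syt7 and 0.41 against Vamp2, and Sytl4 had r between -0.37 and 0.08 with all members except Rab3a (0.50). The groups share libraries and differ in depth, so these values describe the pattern only.

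Among 6610 genes the pattern most like Snap25 was that of Scg3 (r = 0.97), which encodes a granin of secretory granules, followed by Scg5 and Ncam1. Ptprn was most like Smim22 (0.98), Tm4sf4 and Cpe, which encodes the carboxypeptidase of hormone processing, and Ptprn2 was most like Lrp11 (0.98), Syt13 and Hap1. Syt7 was nearest to Spa17 (0.97), Kif21a and Pnmal1, and Stx1a to Uchl1 (0.95), Tspan7 and Tox3. Sytl4 was most like Tmem215 (0.96), Trpm5 and T2. The closest genes to Vamp2 were Ccdc104 (0.92), 2300009A05Rik and Cry2, and those to Rab3a were Stmn3 (0.84), Alg2 and Vstm2l, the lowest likeness of these 8 genes.

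Few of these transcripts were seen at once in single cells at a depth of 5000 UMIs, which limits the number seen. Without thinning, a Ptprn2 UMI was seen in 93.0% of heterozygous beta cells, and after it in 51.3%. Thinned to 5000 UMIs, a cell had UMIs of a median of 3 of the 9 genes in each tumor library, 2 in homozygous alpha cells and 3 in heterozygous alpha cells. Cells with 5 or more were 12.7%, 12.4% and 9.93% of tumors A, B and C, against 6.03% of homozygous and 10.0% of heterozygous alpha cells. The hormone transcripts summed to 424813, 411596 and 410844 CPM in tumors A, B and C, against 564852 in homozygous and 481242 in heterozygous alpha cells. Thinned alpha cells thus kept fewer UMIs of other genes than thinned tumor cells, and the part of this in the shares was not tested. Endothelial cells of the heterozygous library had a median of 1, and 25.4% of them had none.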

How the data were processed

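Single-cell RNA-seq libraries (10x Chromium, 3′ chemistry) were made from Gcgr knockout tumors (3), homozygous islets (1) and heterozygous islets (1). Per the submitters' processing notes, reads passed through CASAVA 1.8, bcl2fastq 2.17 and GSNAP on GRCm38, with no role given for each tool. The deposited tables hold normalized signal per cell, and the authors' total UMI count per cell stands beside it. The signal equals UMIs over the cell's total times a constant (9936 for islets, 12219 for tumors), so whole UMIs were recovered for 100.0% of nonzero values (tolerance 0.01). Tables were normalized separately, and all values here use the recovered UMIs. Cell types and clusters are the authors' deposited annotation. The tumor libraries could not be tied to the sample numbers in the labels.

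Limits of 1000 UMIs and 500 genes as minima, and 20% mitochondrial UMIs as maximum, removed no cell. Scrublet (through scanpy 1.11.5, expected rate 0.06) marked 18, 9 and 15 tumor cells (A, B, C), 1 homozygous and 8 heterozygous islet cells as doublets, which were left out. Cell identifiers shared between libraries numbered 0. Recovered totals were 10508498, 22893238 and 22161240 UMIs in tumors A, B and C, 34101553 in homozygous and 22174810 in heterozygous islets.

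Differences were tested with limma 3.58.1 (trended, R 4.3.3) on log2(mean CPM + 1), with genes at 5 CPM or more in 2 libraries and Benjamini-Hochberg adjustment over all of them. Fold changes on this scale understate those of low genes. P-values measure the spread between these libraries. They test the change before the shift of the median gene is taken off, also where a relative change is printed beside them. In the tumor comparison the spread of the islet arm lies between 1 homozygous and 1 heterozygous library, so it includes any difference between the genotypes. Alternatives were edgeR 4.0.16 and DESeq2 1.42.0 on whole UMIs, TMM, other pseudocounts and filters, totals without hormone transcripts and left-out libraries. Genotype ratios have exact conditional binomial intervals. The scripts were tested on simulated data. Named genes were the 9 members, genes of 6 related lists past the threshold (up to 4 per list and direction), and the 3 genes most like each member (those of Unc13a are not reported here). Members and lists were chosen with earlier results of these data known.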

Additional observations from a re-analysis of the deposited data

Results flagged for a closer look

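Syt7 and Ptprn2 stood on opposite sides of 1 in the genotype ratio of different cell types. The homozygous over heterozygous ratio of Syt7 was 1.26 (1.14 to 1.39) in beta cells, against 0.594 (0.534 to 0.662) in alpha cells and 0.631 (0.470 to 0.859) in delta cells. That of Ptprn2 was 1.47 (1.37 to 1.57) in beta cells, against 0.750 (0.690 to 0.815) in alpha cells and 0.595 (0.487 to 0.731) in delta cells. With 1 library per genotype the difference between cell types was not tested. Hormone transcripts took 71.3% of UMIs in homozygous and 71.4% in heterozygous beta cells, 56.5% and 48.1% in alpha cells and 53.7% and 39.8% in delta cells. Without them the Syt7 ratio was 1.25 in beta, 0.708 in alpha and 0.820 in delta cells, and the Ptprn2 ratio was 1.47, 0.894 and 0.773.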

How the results depend on the processing

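In the tumor comparison, genes higher and lower numbered 37 and 10 with TMM scaling, 49 and 10 without hormone transcripts, 6 and 0 with no filter on low values (3600 at an unadjusted p under 0.05), 17 and 1 with edgeR, 395 and 264 with DESeq2, 192 and 24 with a pseudocount of 5, and 52 and 22 with tumor clusters 1 and 3 alone, which is the same fit as that without tumor C. Leaving out 1 library gave 27 and 4 without tumor A, 143 and 10 without tumor B, 52 and 22 without tumor C, 53 and 2 without homozygous and 14 and 0 without heterozygous islets. Rab3a was lower in all 16 alternatives and passed the threshold in 7. Members that did not pass changed sign in some alternatives. Stx1a was -0.0087 with a pseudocount of 5, -0.13 with tumor clusters 1 and 3 and -0.0019 without small alpha clusters, and ran from -0.16 to 0.15 when 1 library was left out. Snap25 was 0.061 and Ptprn2 0.10 with no filter, and Ptprn2 was 0.11 with tumor clusters 1 and 3. With 1 library left out Snap25 ran from -0.31 to 0.086, Ptprn2 from -0.20 to 0.11 and Vamp2 from -0.12 to 0.18. No paired analysis was possible because the groups of the tumor comparison share no replicate numbers that link tumors to islets.

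In the Slc38a5 comparison the fit without the replicate block of library gave 0 higher and 0 lower (limma, 16 genes at an unadjusted p under 0.05). Counts were 5 and 1 with TMM, 14 and 5 without hormone transcripts, 54 and 36 with edgeR, 0 and 0 with thinned cells (782 at an unadjusted p under 0.05) and with thinned islet cells alone (373), and 9 and 5 with thinned tumor cells alone. Leaving out 1 library of the thinned fit gave 0 to 2 higher and 0 lower. Some members changed sign against the unthinned fit with library as a block. Their relative changes in that fit were -0.10 for Stx1a, -0.14 for Snap25, 0.17 for Vamp2 and -0.47 for Unc13a, none past the threshold. Stx1a was 0.39 in thinned cells, 0.12 in islets and 0.68 in tumors alone. It was 0.63 without heterozygous islets, 0.35 without homozygous islets, 0.53 without tumor A and 0.10 without tumor C. These Stx1a values had limma adjusted p between 0.609 and 0.974. Snap25 was 0.018 and Vamp2 -0.046 in thinned tumor cells. Without homozygous islets Snap25 was 0.075 and without tumor A 0.095, in a range from -0.16. Without heterozygous islets Vamp2 was -0.014 and without tumor A -0.036, in a range up to 0.17. Unc13a was 0.034 in thinned islet cells. Unthinned fits of tumors alone, or with 1 islet library left out, gave no value.

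In the genotype comparison, genes higher and lower in alpha cells numbered 170 and 179 relative to the median gene, 143 and 249 in cluster 2.1, 41 and 486 in cluster 2.2, and 261 and 298 without hormone transcripts. Without those transcripts they numbered 153 and 176 in beta and 101 and 128 in delta cells, and relative to the median gene 93 and 74 in delta cells. The cause of these shifts was not tested. Depth limits Sytl4 outside beta cells, and Stx1a and Unc13a in small groups, where a few UMIs set the level.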
